A study of Salmo salar with 31 samples.

Results

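In the skin of Atlantic salmon, 14 of 14841 array features differed from smolts early in the open net-pen (1 month after seawater transfer, net-pen 1M) and late in the semi-closed containment system (4 months, S-CCS 4M), and lay near the smolt level in the other post-smolts. Of these, 5 were higher than in smolts and 9 were lower. Members were chosen on group medians of log2 intensity, the fluorescence of a probe on the deposited scale, with values below a floor of 16 set to that floor. A member's highest group median was at least 6, which 9008 features passed. Its median differed from that of smolts by at least 0.8 on the log2 scale (1.74-fold) with one sign in net-pen 1M as well as S-CCS 4M, and by under 0.4 (1.32-fold) in the other groups. These differences chose the members and are therefore given as a description.

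The study followed salmon of one smolt batch from freshwater into the sea. The groups were post-smolts 1 month (net-pen 1M, 6 fish) and 4 months (net-pen 4M, 6 fish) after transfer to an open cage, post-smolts 1 month (S-CCS 1M, 6 fish) and 4 months (S-CCS 4M, 6 fish) after transfer to a closed containment system that pumps in deep water, and freshwater smolts (7 fish). All fish were farmed on commercial feed, and no age, sex or genotype distinguished the groups in the labels. The net-pen was the warmer system at both samplings, and the later sampling was the warmer one in both systems. By the paper, salinity was higher in the containment system, and the sampled fish were heavier at the later sampling in both systems. Each system was 1 enclosure at a site of its own, so system, site and enclosure cannot be told apart, and the p-values below measure the spread between fish of 1 enclosure.

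Skin is the outer barrier of the fish, built of a living epidermis with mucus-secreting cells over a collagen-rich dermis that carries the scales. Smolts prepare in freshwater for life in salt water, and transfer to the sea exposes the skin to a change in salinity, temperature, water movement and microbes. RNA came from whole skin, in which fewer cells of a type and less RNA per cell cannot be told apart. The probe IDs matched 0 of 65341 genes in the reference table, so members are called by their probe IDs, without a gene or function, and the lists of cell type markers and pathways could not be applied. The skin identity of the samples was not checked against markers for the same reason.

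Between 84.3% and 97.1% of the features were well above background on each of the 31 arrays, and 0 spots were saturated. Of the 434 member values, 5 were not well above background and 10 lay at the floor, all of them of Ssa#GRASP209736671. The arrays lay on 10 slides. Net-pen 1M filled 3 slides alone, S-CCS 4M lay on 3 slides and shared 2 of them with 4 smolts, and net-pen 4M, S-CCS 1M and the other 3 smolts lay on the remaining 4 slides. The groups in which the members differed from smolts were thus also those of the first 6 slides. Of the arrays, 3 had more than 1000 blank values in the deposited table (S-CCS 4M fish 11 and 12, and smolt 7), against a median of 247 over all arrays.

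The profile was the end of a steep selection. The difference of 0.8 was passed by 912 features in net-pen 1M and by 1506 features in S-CCS 4M. Both differences with one sign were found for 531 features, of which 294 were higher and 237 lower than in smolts. Among the 531, 364 also passed 0.8 in net-pen 4M, 248 did so in S-CCS 1M and 203 in all 4 post-smolt groups. Only 48 stayed under 0.4 in net-pen 4M, and 135 stayed under 0.4 in S-CCS 1M. The mirrored profile, with net-pen 4M and S-CCS 1M past 0.8 and the other groups under 0.4, was met by 17 features (6 higher and 11 lower). Which of the 2 profiles was met by more features depended on the settings: the one described here in 6 of 10 other settings, the mirrored one in 3, and neither in 1. With 1 fish left out at a time, the mirrored one was met by more features in 19 of 31 runs. The one described here was ahead in 10 of these runs, and neither in 2.

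**Figure D1:**
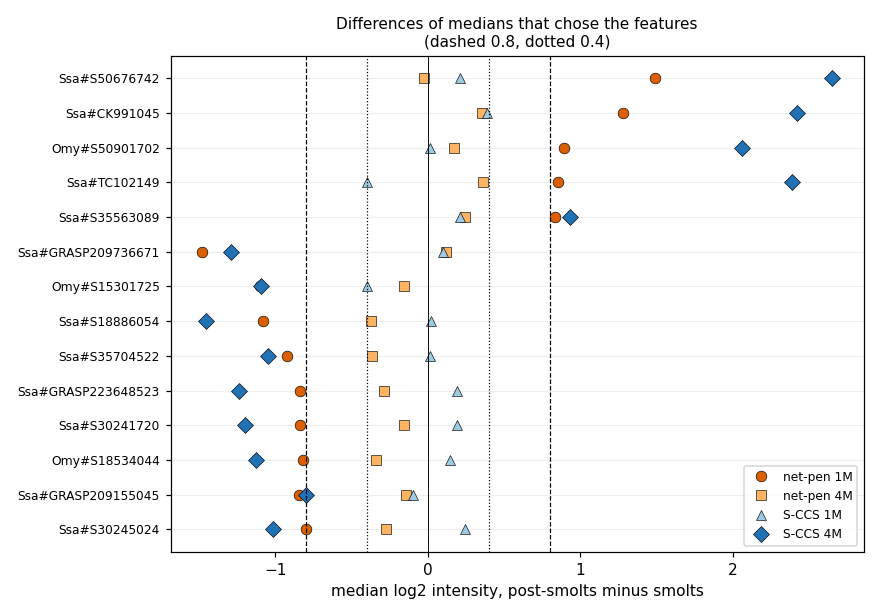
Difference of the median log2 intensity of each post-smolt group from smolts for the 14 members (horizontal axis, log2 scale), with the thresholds at 0.8 and 0.4 as dashed and dotted lines. The S-CCS 4M symbols of the first 4 rows lie more than 1 unit beyond the net-pen 1M symbols, and for Omy#S15301725 the S-CCS 4M symbol covers that of net-pen 1M.

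The members higher than smolts differed most in S-CCS 4M. There, the median of Ssa#S50676742 was 6.28-fold that of smolts, Ssa#CK991045 5.35-fold, Ssa#TC102149 5.23-fold and Omy#S50901702 4.17-fold, while Ssa#S35563089 reached 1.91-fold. In net-pen 1M, Ssa#S50676742 reached 2.80-fold, Ssa#CK991045 2.43-fold, Ssa#TC102149 1.80-fold, Omy#S50901702 1.86-fold and Ssa#S35563089 1.78-fold. The first 4 thus differed more in S-CCS 4M than in net-pen 1M, by 1.14 to 1.54 on the log2 scale, and Ssa#S35563089 by 0.10. Their highest group medians were between 9.59 and 14.40. In the paragraphs that follow, the values of single fish are log2 intensities in order of size.

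Ssa#S50676742 had values of 7.78, 8.37, 8.39, 8.47, 9.35 and 12.96 in net-pen 1M fish and of 8.50, 8.65, 9.44, 9.75, 9.83 and 9.89 in S-CCS 4M, against 6.07, 6.30, 6.69, 6.94, 7.64, 8.35 and 9.54 in smolts. Both groups overlapped with smolts through smolt 12, the highest of its group, and net-pen 1M also through smolt 7. In the other post-smolts the probe had 5.36, 5.91, 6.74, 7.10, 8.11 and 8.28 in net-pen 4M fish and 6.41, 6.58, 6.79, 7.52, 8.97 and 9.02 in S-CCS 1M. Fish 1 of net-pen 1M, at 12.96, stood far above the next fish of its group, at 9.35.

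Ssa#CK991045 had the highest single value of net-pen 1M in the same fish, fish 1. Its values were 12.47, 12.67, 12.82, 13.71, 13.72 and 16.02 in net-pen 1M fish and 13.72, 13.83, 14.10, 14.70, 14.78 and 14.83 in S-CCS 4M, against 10.48, 10.55, 11.34, 11.98, 12.41, 12.94 and 14.11 in smolts. All fish of both groups exceeded the smolt median of 11.98, and 3 of 6 S-CCS 4M fish exceeded every smolt. The values were 10.41, 10.64, 11.56, 13.10, 13.76 and 13.81 in net-pen 4M fish and 11.64, 11.71, 12.28, 12.46, 13.83 and 14.19 in S-CCS 1M, so both groups held fish above 13.72, the second highest value of net-pen 1M.

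Omy#S50901702 resembled Ssa#CK991045 in its pattern over fish. It had 11.62, 11.72, 11.75, 12.71, 12.89 and 15.26 in net-pen 1M fish and 12.50, 12.88, 13.33, 13.46, 13.53 and 13.75 in S-CCS 4M, against 9.80, 9.91, 10.60, 11.34, 11.77, 12.23 and 13.28 in smolts. Above every smolt lay 4 of 6 S-CCS 4M fish and 1 of 6 net-pen 1M fish. Its values were 9.64, 9.65, 10.66, 12.36, 12.76 and 12.88 in net-pen 4M fish and 10.71, 10.94, 11.16, 11.54, 12.80 and 12.90 in S-CCS 1M.

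Ssa#TC102149 was the single higher member whose S-CCS 4M fish all exceeded both smolts and net-pen 1M. It had 9.16, 9.44, 9.74, 10.05, 10.62 and 10.78 in net-pen 1M fish and 10.98, 11.24, 11.36, 11.51, 11.56 and 12.93 in S-CCS 4M, against 7.78, 8.51, 8.53, 9.05, 9.24, 9.47 and 9.56 in smolts. In net-pen 1M, 4 of 6 fish lay above every smolt. Of the 9008 features, 263 had no overlap between S-CCS 4M and net-pen 1M, and 1736 none between S-CCS 4M and smolts. The other post-smolts had 6.82, 7.56, 8.07, 10.74, 10.98 and 11.38 in net-pen 4M fish and 7.34, 7.61, 8.01, 9.29, 9.57 and 9.99 in S-CCS 1M. In net-pen 4M, 3 fish therefore lay above every smolt and 2 below every smolt. Ssa#S35563089 had the narrowest range, with 11.06 to 11.91 in net-pen 1M (median 11.62) and 11.25 to 11.99 in S-CCS 4M (median 11.72), against 10.04 to 11.69 in smolts (median 10.79). Its net-pen 4M fish spanned a wider range, 9.14 to 11.95, than its S-CCS 1M fish, at 10.70 to 11.69.

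**Figure D2:**
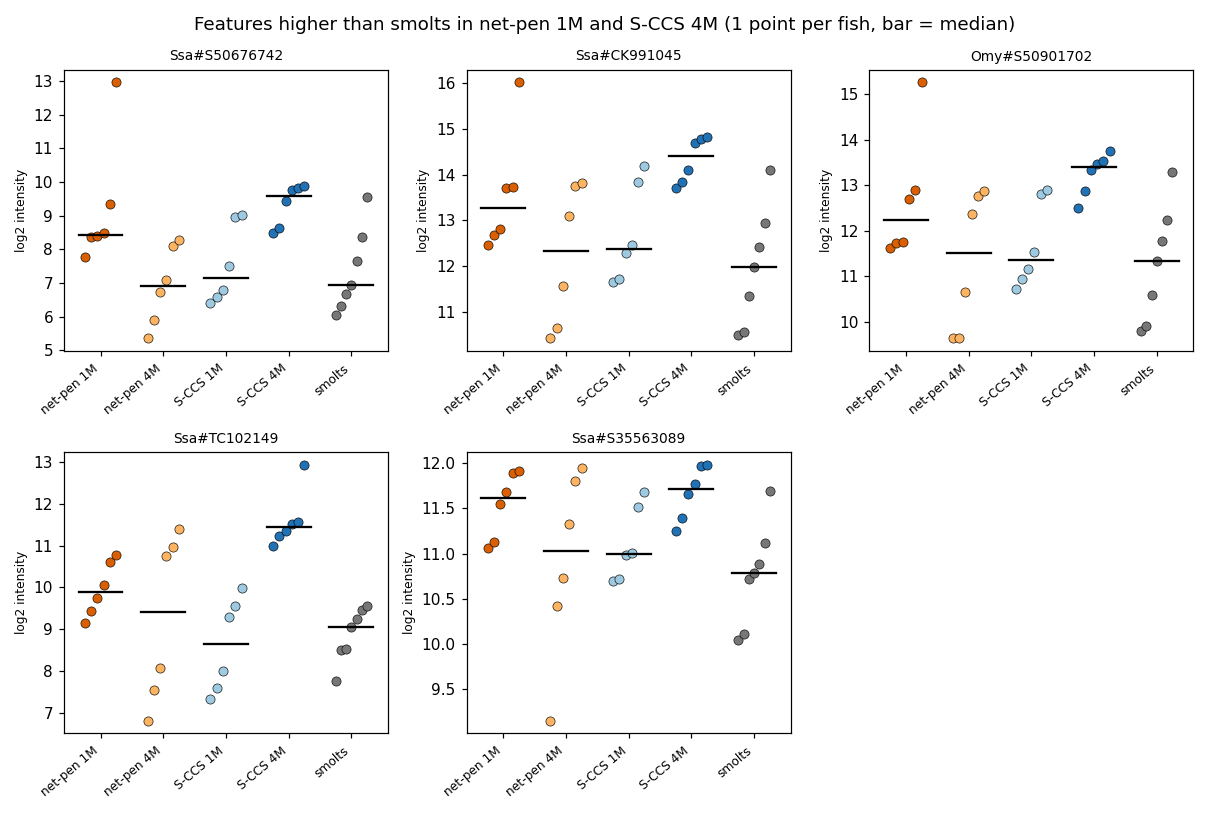
Log2 intensity (vertical axes) of the 5 members higher than smolts, with 1 point per fish and a bar at the group median. For Ssa#CK991045, Omy#S50901702 and Ssa#TC102149 the net-pen 4M fish lie in a high and a low set around the median bar. In net-pen 1M fish 1 stands above the rest for the first 3 probes.

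The net-pen 4M medians of the higher members lay near smolts although few of the fish did. Averaged over the 5 higher members and set against the smolt medians, net-pen 4M fish 6, 7 and 11 had 1.608, 1.498 and 0.907, and fish 1, 2 and 12 had -1.02, -1.03 and -1.34. Net-pen 1M fish had 0.58 to 3.16, S-CCS 1M fish -0.62 to 1.44, S-CCS 4M fish 1.56 to 2.32 and smolts -0.86 to 1.60, the last being smolt 12. Fish 1 and 2 of net-pen 4M shared slide 7 and fish 6 and 7 shared slide 8, while fish 11 and 12 shared slide 9 and differed. S-CCS 1M fish 1 and 2, also on slide 8, had 1.26 and 1.44, the highest of their group. S-CCS 1M fish 6 and 7, on slide 9, had -0.62 and -0.25. The part of slides in this was not tested. Membership followed the division of net-pen 4M: when its fish 1, 2 or 12 was left out, 1 feature met the profile in the higher direction, and when fish 6, 7 or 11 was left out, 25 did, of which 2 were among the 5 members.

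**Figure D3:**
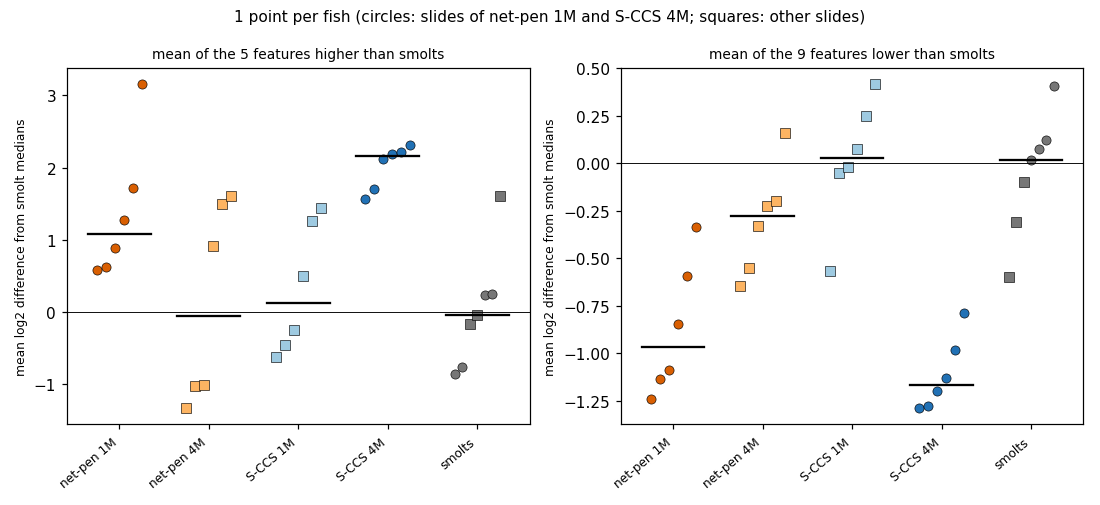
Mean difference from the smolt medians (vertical axes, log2 scale) over the higher members (left) and over the lower members (right), with 1 point per fish, a bar at the group median, circles for arrays on slides with net-pen 1M or S-CCS 4M fish and squares for the other slides. For the higher members net-pen 4M spans -1.34 to 1.61, whereas for the lower members it spans -0.64 to 0.16.

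The higher members varied widely between fish of one group. Their pooled SD within groups was 0.60 for Ssa#S35563089 and 1.13 to 1.29 for the other 4, which placed them at the 88.5 to 97.5 percentile of the 9008 features, whose median SD was 0.29. In S-CCS 4M the spread of Ssa#S50676742, Ssa#CK991045 and Omy#S50901702 was 0.62, 0.50 and 0.46, against 0.95 to 1.90 in the other 4 groups. Across the 31 fish, deviations of Ssa#CK991045 and Omy#S50901702 from their group means had a Pearson r of 0.99, and each had 0.94 with Ssa#S50676742. Ssa#TC102149 and Ssa#S35563089 had 0.72 with each other and 0.39 to 0.53 with the first 3. These correlations are a description, since the points share arrays and slides, and probes to related transcripts could not be told apart without their sequences.

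In S-CCS 4M the members lower than smolts differed by smaller amounts than 4 of the 5 higher members, whereas in net-pen 1M the sizes were alike. Their medians were 0.36 to 0.57 of the smolt median in net-pen 1M fish, and 0.36 to 0.57 of it among S-CCS 4M fish as well. The difference of medians in S-CCS 4M minus that in net-pen 1M was between -0.40 and 0.19 on the log2 scale. Their highest medians were between 6.47 and 9.82.

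Ssa#GRASP209736671 had the largest difference among them in net-pen 1M, but rested on values at the floor (4.0 in log2). It had 4.0, 4.0, 4.0, 5.75, 5.95 and 6.32 in net-pen 1M fish and 4.0, 4.0, 4.0, 6.13, 6.25 and 6.25 in S-CCS 4M, against 4.0, 4.0, 6.30, 6.36, 6.43, 6.48 and 6.52 in smolts. With 3 of 6 fish at the floor in each group and 2 of 7 smolts there too, the groups overlapped throughout. Net-pen 4M fish had 4.0, 4.0, 6.25, 6.70, 6.75 and 6.75, and S-CCS 1M fish had 4.25, 6.36, 6.39, 6.52, 6.58 and 7.55.

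For Omy#S15301725 neither group overlapped with smolts, which among the 14 members held also for Ssa#GRASP209155045. Both comparisons chose the members, and the share of all features without overlap in both was not counted, so nothing is read from this. It had 5.98, 6.52, 6.55, 6.64, 6.93 and 7.20 in net-pen 1M fish and 6.23, 6.38, 6.51, 6.70, 6.74 and 7.10 in S-CCS 4M, against 7.23, 7.43, 7.52, 7.70, 8.16, 8.25 and 8.58 in smolts. The median was 6.60 in both groups. In net-pen 4M it had 6.87, 7.41, 7.46, 7.63, 7.76 and 8.08, and in S-CCS 1M 6.62, 7.13, 7.29, 7.32, 7.54 and 7.67, where 2 of 6 fish lay below every smolt.

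Ssa#S18886054 had 7.79, 8.39, 8.48, 8.95, 9.15 and 10.06 in net-pen 1M fish and 7.74, 8.14, 8.20, 8.48, 8.70 and 9.15 in S-CCS 4M, against 7.28, 9.39, 9.73, 9.80, 9.83, 9.96 and 10.77 in smolts. Smolt 3, at 7.28, lay below every fish of both groups, so both overlapped with smolts. The other post-smolts were at 8.72, 9.03, 9.39, 9.46, 9.59 and 9.94 in net-pen 4M fish and 8.80, 9.56, 9.65, 9.99, 10.30 and 10.38 in S-CCS 1M.

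Ssa#S35704522 had 7.75, 7.95, 7.96, 7.99, 8.25 and 8.84 in net-pen 1M fish and 7.49, 7.77, 7.84, 7.87, 7.89 and 8.20 in S-CCS 4M, against 8.64, 8.75, 8.76, 8.90, 9.03, 9.05 and 9.39 in smolts. All S-CCS 4M fish and 5 of 6 net-pen 1M fish lay below every smolt, the exception in net-pen 1M being fish 11. Net-pen 4M had 8.44, 8.45, 8.49, 8.57, 8.72 and 8.79, with 4 of 6 fish also below every smolt, and S-CCS 1M had 8.41, 8.75, 8.87, 8.95, 8.97 and 9.26.

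The remaining lower members were Ssa#GRASP223648523, Ssa#S30241720, Omy#S18534044, Ssa#GRASP209155045 and Ssa#S30245024. All 6 S-CCS 4M fish lay below every smolt for each of them. For 4 of them 5 of 6 net-pen 1M fish did so, with fish 11 as the exception, and for Ssa#GRASP209155045 all 6 did, at 8.71 to 9.16 in net-pen 1M fish and 8.53 to 9.30 in S-CCS 4M, against 9.66 to 9.93 in smolts. In net-pen 4M, 5 of 6 fish were below every smolt for Omy#S18534044 and for Ssa#S30245024, although the medians differed by only -0.34 and -0.27. The same held for 4 of 6 net-pen 4M fish for Ssa#GRASP209155045, 3 for Ssa#GRASP223648523 and 1 for Ssa#S30241720. For Ssa#GRASP209155045, 3 of 6 S-CCS 1M fish were also below every smolt, and 2 were above. For Ssa#S30245024, 5 of 6 S-CCS 1M fish were instead above every smolt, with a difference of medians of 0.25. Of the 9008 features, 19.3% had no overlap between S-CCS 4M and smolts and 10.3% none between net-pen 1M and smolts. Both comparisons chose the members.

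**Figure D4:**
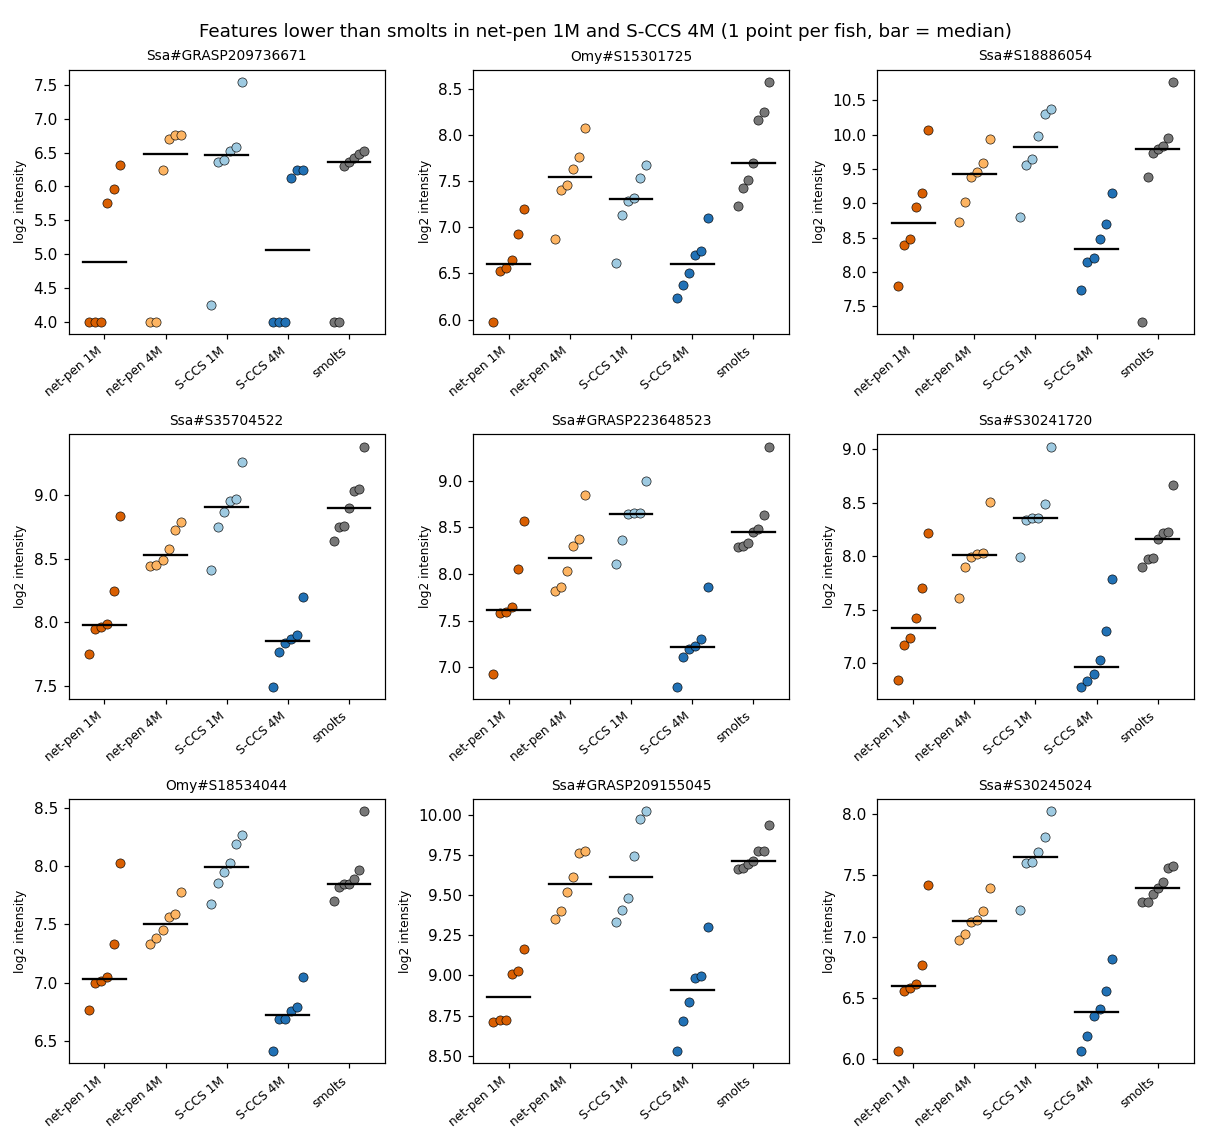
Log2 intensity (vertical axes) of the 9 members lower than smolts, with 1 point per fish and a bar at the group median. Fish 11 is the highest net-pen 1M point in 7 of the 9 panels, and in the first panel the points at 4.0 are values at the floor.

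Most lower members varied together between fish. Over the 36 pairs, the correlation of deviations ranged from -0.16 to 0.94 with a median of 0.55. The highest was that of Ssa#S35704522 and Omy#S18534044 (0.94), followed by Ssa#GRASP223648523 with Omy#S18534044 (0.90) and with Ssa#S30241720 (0.89). Ssa#GRASP209736671, with its values at the floor, reached at most 0.30 with any other lower member. Between higher and lower members r was -0.34 to 0.29 over 45 pairs, with a median of -0.16. As for the higher members, these correlations are a description, since the points share arrays and slides and related probes could not be told apart. The pooled SD within groups was 0.35 at the median of the lower members, against a median of 0.29 for all 9008 features. Ssa#GRASP209736671 (1.195) and Ssa#S18886054 (0.73) lay at the 96.9 and 92.0 percentile.

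Several members stood at the edge of the profile. Inside it, Ssa#TC102149 had a difference of -0.3993 in S-CCS 1M and Ssa#CK991045 of 0.39, and of the lower members Ssa#S30245024 had -0.801 in net-pen 1M and Ssa#GRASP209155045 -0.8011 in S-CCS 4M. Just outside, Ssa#GRASP223672044 missed through 0.41 in S-CCS 1M while differing by 1.58 in net-pen 1M fish and 2.70 in S-CCS 4M, and Ssa#GRASP223649411 missed through 0.42 in S-CCS 1M. In the lower direction, Ssa#S18879537 missed through -0.797 in net-pen 1M and Ssa#GRASP209732631 through -0.4066 in net-pen 4M. With each of the 31 fish left out in turn, Omy#S18534044 alone was kept in all 31 lists, Ssa#S50676742 and Ssa#S18886054 were kept in 28, and Ssa#TC102149 in 12.

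The fit across all features used log2 expression ratios (log2-ER), each feature's signal relative to its mean over the arrays, and limma with Benjamini-Hochberg adjustment over 14172 features. All 14 members passed the filter on dim features. At an adjusted p under 0.05, 5 members were called in net-pen 1M against smolts, all lower, where 18.8% of all features were called, and 12 in S-CCS 4M (5 higher and 7 lower), where 24.6% were called. The 5 called in net-pen 1M were Omy#S15301725, Ssa#GRASP209155045, Ssa#S35704522, Ssa#S30245024 and Omy#S18534044. The higher members had estimates of 0.86 to 1.96 in net-pen 1M with standard errors of 0.34 to 0.73. The lower members had estimates of -1.21 to -0.49 there, with a median of -0.61 and standard errors of 0.13 to 1.12. Of the lower members, only Omy#S15301725 passed 0.8 in size on this scale. Both contrasts were used to choose the members, so nothing is read from these counts. In the net-pen 4M contrast limma called 0 members (0 at an unadjusted p under 0.05), against 19.2% of all features, and in the S-CCS 1M contrast 0 (1 at an unadjusted p under 0.05), against 4.47%. The choice of members held these differences small in the same fish, so nothing is read from these counts either. It did so in medians of the deposited values, and estimates of this fit could still pass 0.4. The probe with the low unadjusted p was Omy#S15301725, at -0.65 ± 0.22 (SE) in S-CCS 1M, with a limma adjusted p of 0.088. In S-CCS 1M, Ssa#CK991045 had 0.67 ± 0.63 (SE) and Ssa#GRASP209736671 1.18 ± 1.12 (SE), also past 0.4. In net-pen 4M, Ssa#TC102149 had 0.42 ± 0.62 (SE) and Ssa#GRASP209736671 0.51 ± 1.12 (SE).

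By fish rather than by fit, net-pen 1M did not overlap with smolts for 2 members, where 10.3% of the 9008 features did not overlap, and S-CCS 4M for 8 members, where 19.3% did not. These counts rest on the contrasts that chose the members as well.

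The difference between S-CCS 4M and net-pen 1M was not set in size by the choice of members, although both had to lie on one side of smolts. With limma, 0 of 14 members were called (2 at an unadjusted p under 0.05), against 2.43% of all features. The estimate farthest from 0 was that of Ssa#TC102149, 1.67 ± 0.64 (SE) higher in S-CCS 4M, with a limma adjusted p of 0.15. Its 6 S-CCS 4M fish lay above all 6 net-pen 1M fish, and 263 of the 9008 features had no overlap between these groups. For Omy#S18534044 the estimate was -0.48 ± 0.20 (SE), with a limma adjusted p of 0.20. The first 3 higher members had estimates of 0.15 to 0.77 with standard errors of 0.65 to 0.75, although their medians differed by 1.14 to 1.17. Their net-pen 1M means of 9.22, 13.57 and 12.66 in log2 intensity lay above the medians of 8.43, 13.26 and 12.23. Fish 1 was the highest of that group for each. These groups differ in system as well as time, which cannot be told apart here. Slides cannot be told apart from group in this comparison either, since net-pen 1M lay on slides of its own.

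Net-pen 4M and S-CCS 1M, whose medians the profile holds near smolts, were also set against each other. Limma called 0 of 14 members (1 at an unadjusted p under 0.05), where 8.09% of all features were called. As the choice of members held both groups within 0.4 of smolts in medians, nothing is read from this count. The members' median estimate was -0.27 for the higher and -0.31 for the lower ones, against -0.01 over all features. The slides that held both groups differed in direction for the lower members. Net-pen 4M minus S-CCS 1M had a median of 0.11 on slide 8, with 7 of 9 lower members above 0, and of -0.75 on slide 9, with 8 of 9 below 0. Each of these slides held 2 fish of each group, and the members share them, so these counts are not of separate observations. For the higher members the medians were -0.03 on slide 8 and 0.03 on slide 9, although both groups were higher on slide 8 for each of them. With slide as a fixed block limma called 0 members as well (lowest adjusted p 0.0655), where 5.37% of all features were called. In the fit without the block, Ssa#S30245024 had the lowest p, with an estimate of -0.47 ± 0.19 (SE) and a limma adjusted p of 0.13. With the block its estimate was -0.51 ± 0.15 (SE).

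Because slides followed the profile, smolts were compared between slides. The mean of the 4 smolts on the slides of S-CCS 4M was below that of the other 3 smolts for all 5 higher members. The median difference was -0.76. For 8 of 9 lower members it was above that of the other smolts, with a median difference of 0.33 over the 9. The members share these fish and several vary together, so these counts are not of separate observations. For these 13 members the mean of the smolts on the S-CCS 4M slides lay farther from S-CCS 4M than that of the other smolts. These smolts also set the medians that chose the members, so this is a description. The part of slides was not tested. Limma called 0 members in this comparison (3 at an unadjusted p under 0.05) and 0% of all 14172 features. The means of both sets of smolts were 9.09 and 8.72 for Ssa#S35704522, the one member whose 2 sets did not overlap. The share of all features without such overlap was not counted, so nothing is read from this.

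Within the slides that held both S-CCS 4M and smolts, with 4 fish of each, the group means were compared. In means, S-CCS 4M was above smolts for 5 of 5 higher members, by 1.13 to 3.15. It was below them for 9 of 9 lower members, with differences of -1.52 to -0.89. Ssa#TC102149 averaged 11.74 in S-CCS 4M and 8.59 in smolts of these slides, and Omy#S15301725 6.61 in S-CCS 4M and 8.13 in smolts. With slide as a fixed block over the 23 arrays on slides of several groups, limma called 12 members, where 17.3% of all features were called, and the estimate for Ssa#CK991045 was 2.82 ± 0.61 (SE) with the block and 2.43 ± 0.72 (SE) without it. These fish are among those whose values chose the members, so the directions within slides are a description, and the part of slides in the profile was not tested. No such value exists for net-pen 1M, which shared no slide with smolts, so slide and group cannot be told apart there.

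Other slides gave different pictures of the groups near smolts. On slide 7, the mean of net-pen 4M fish 1 and 2 was below that of smolts 11 and 12 for every member. The differences of means were -1.92 to -1.47 for the 5 higher members and -0.51 to -0.06 for the 9 lower ones. Single fish overlapped for some members: Ssa#CK991045 had 11.565 in net-pen 4M fish 2 and 11.338 in smolt 11. On slide 10, the mean of S-CCS 1M fish 11 and 12 differed from smolt 3 by -0.26 to 0.33 for the higher members. For the lower ones it differed by -0.20 to 2.50. The values of 2.44 and 2.50 belonged to Ssa#GRASP209736671 and Ssa#S18886054, for which smolt 3 was the lowest or among the lowest of its group. No test was run within single slides.

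**Figure D5:**
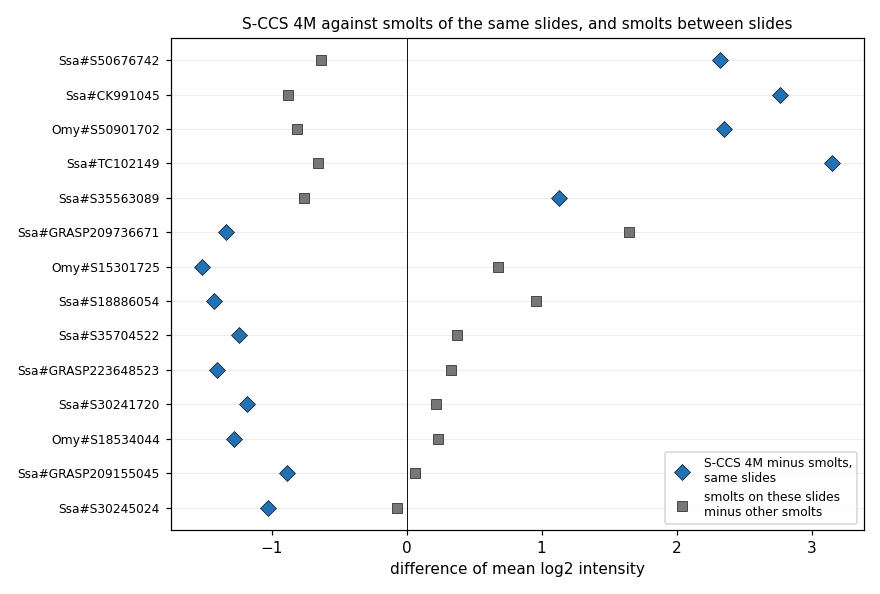
Difference of mean log2 intensity (horizontal axis) between S-CCS 4M and smolts hybridized on the same slides (diamonds, 4 fish each) and between smolts on these slides and the other 3 smolts (squares), for the 14 members. The diamonds lie at 1.13 to 3.15 for the higher and -1.52 to -0.89 for the lower members, and 13 of 14 squares lie on the other side of 0.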

How the data were processed

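Skin RNA of 31 fish was hybridized to 1-colour arrays of 15377 spots, 536 of them controls. The authors deposited scanner tables with spot intensity, background intensity and 0/1 flags (other values) from Feature Extraction 12.0.1.1, and a value table. Each column of the deposited value table equals the median signal minus local background times 1 constant (SD of the log2 ratio 0.00102 to 0.00133 above 200), and is thus scaled intensity. Its log2 was taken here. Members were chosen on this table and tested on the scanner's processed signal: arrays scaled to equal mean, log2-ER, lowess (span 0.3), outlier spots left out, features well above background in 50% of a group kept (669 removed). One limma 3.58.1 fit in R 4.3.3 held 5 groups, and a further one split smolts by slide. Python 3.11.15 (numpy 2.4.6, pandas 2.3.3) read the tables and matplotlib 3.10.9 drew the figures. Scripts were tested on simulated data.

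Members, lists and tests were chosen with earlier results of these data known. Members of each direction were ordered by the smaller of their 2 differences. The first 8 were named, the first 4 with every fish's value, and so were the 2 members inside and 2 features outside nearest to a threshold, which covers all members. The number of arrays limits the precision. The labels and the paper name different RNA extraction kits.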

Additional observations from a re-analysis of the deposited data

Results flagged for a closer look

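In 9 of 70 groups of 6 or 7 fish (14 members in 5 groups), 1 fish lay far from the others relative to the group's range. For independent groups chance gives about 1 in 20, or 3.5 groups. The members share fish and several vary together, so no excess over chance is read from this count. Fish 1 of net-pen 1M accounted for 3 of them, with log2 intensities of 12.96 for Ssa#S50676742 (next fish 9.35), 16.02 for Ssa#CK991045 (next 13.72) and 15.26 for Omy#S50901702 (next 12.90), which are the probes whose deviations went together. Smolt 1 accounted for a further 3, with 9.37 for Ssa#GRASP223648523 (next 8.64), 8.47 for Omy#S18534044 (next 7.97) and 9.93 for Ssa#GRASP209155045 (next 9.77). The others were S-CCS 4M fish 12 at 12.93 for Ssa#TC102149 (next 11.56), S-CCS 1M fish 1 at 4.25 for Ssa#GRASP209736671 (next 6.36) and smolt 3 at 7.28 for Ssa#S18886054 (next 9.39). The cause was not tested.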

How the results depend on the processing

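The list of members depended on the processing. In the higher direction (5 members) the profile was met by 9 features with the processed signal scaled to the 75th percentile, 12 with lowess-corrected log2-ER, 11 after quantile normalization, 3 with means over fish, 2 with a threshold of 1.0 and 2 with only the smolts on S-CCS 4M slides. In the lower direction (9 members) it was met by 17 with the processed signal scaled to equal mean, 3 with log2-ER, 3 after quantile normalization, 3 with a threshold of 1.0 and 14 without the 3 arrays rich in blanks. The mirrored profile (17 features, against 14 members) was met by 3 features with means over fish, against 10 for the profile described, by 7 without the arrays rich in blanks, against 19, and by 43 with only the smolts on the other slides, against 12. Of the 14 members, 6 were kept with log2-ER and 4 with means over fish. An equal count could hold other features: without the arrays rich in blanks 5 features were higher, of which 1 was a member. Without 1 fish at a time, 1 to 25 features were higher and 6 to 14 lower. The higher count stayed at 5 without smolt 7, with 1 member kept, and without smolt 6 or 12, with 2 kept. Without any 1 S-CCS 4M fish, all 5 were kept. The higher count moved by over 1.5 times without net-pen 1M fish 7 (3) or 11 (8), any net-pen 4M fish (1 or 25), S-CCS 1M fish 1 (8), 2 (10), 7 (3) or 11 (8), or smolt 1 (15), 2 (13), 3 (10) or 11 (14), and the lower count without smolt 7 (14). The cause was not tested.

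Members called in net-pen 1M numbered 4 to 9 under the other settings (16.4% to 21.7% of all features called), with 9 under normexp. They numbered 3 to 11 without 1 fish, with 9 without net-pen 1M fish 11 (19.4%), 3 without fish 12 (18.4%) and 11 without smolt 12 (20.3%). For net-pen 4M against smolts, 1 was called with normexp (22.1% of all features) and 1 without net-pen 1M fish 11 (20.4%). For S-CCS 1M against smolts, 1 was called without smolt 12 (5.4%). In S-CCS 4M 12 or 13 were called under every other setting and 11 or 12 without 1 fish, where 17.3% to 27.6% of all features were called. For net-pen 4M against S-CCS 1M, 2 were called with the deposited values (10.9% of all features) and 2 with normexp (12.2%), and 0 to 1 without 1 fish (1 without net-pen 1M fish 11, 9.19%). S-CCS 4M against net-pen 1M stayed at 0 throughout, where 0.409% to 8.48% of all features were called. The comparison of smolts also stayed at 0, where at most 0.00706% of all features were called. At such shares nothing is read from these counts. Equal fish numbers showed no pairing in the median r of deviations (-0.02 for equal numbers, ranging from -0.42 to 0.36, and 0.00 for unequal ones). Of the 31 arrays, 8 correlated best with their own number, and the number expected by chance was not computed. With the fish number as a replicate block, 4 members were called for net-pen 1M (16.4% of all features) and 12 for S-CCS 4M (21.9%) against smolts, 1 was called for S-CCS 1M (3.95%), and the other comparisons had 0. The settings without the arrays rich in blanks and with a part of the smolts were chosen after seeing the data, as were the net-pen 4M and S-CCS 1M contrasts with smolts.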
